A study of Mus musculus with 14 samples.

Results

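Regulatory T cells (Treg cells) from resting mouse spleens were measured in separate sets of arrays in this series, and the comparison described here sets one of 3 arrays, naive replicates 4 to 6, against the other, naive replicates 1 to 3. The members were taken by sample title, which gives 6 of the 14 arrays of the series. By their labels both sets hold the same kind of cell, CD4+Foxp3+ Treg cells from untreated resting spleens of knock-in mice of the 129/SvJ strain in which the Foxp3 locus also makes the green fluorescent protein GFP (Foxp3-ires-GFP), so the question was how far transcripts differ between sets of samples with no treatment between them. The submitters assigned naive 1 to 3 as controls for Treg cells activated in graft-versus-host disease (GVHD) and naive 4 to 6 as controls for Treg cells activated by an allogeneic tumor. A sort purity over 95% is given for naive 4 to 6 and none for naive 1 to 3, whose protocol text describes a different tumor model alongside the resting spleens. The labels used here do not give age, sex or whether spleens were pooled. The 8 activated arrays give levels for scale and enter a fit over all 14 arrays. Of these, the 3 GVHD-activated samples were sorted from spleens of BALB/c mice on day 4 after 900 cGy of irradiation and transfer of 2000000 CD4+ and CD8+ T cells from the knock-in mice with 2000000 wild-type 129/SvJ bone marrow cells. The 5 tumor-activated samples were sorted from the ascites of knock-in mice 5 days after intraperitoneal injection of 1000000 cells of P815, a mastocytoma (mast cell tumor) line of DBA/2 origin.

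Treg cells hold back other immune cells, and in the spleen most of them are small quiescent lymphocytes, with a fraction that is cycling and carries effector genes. Cycling cells make DNA replication transcripts in S phase and spindle, kinetochore and cytokinesis transcripts in G2 and mitosis. Immediate early genes encode transcription factors such as Fos, Jun, Egr and Nr4a proteins, whose transcripts appear soon after antigen receptor, growth factor or stress signals and decay fast, and they are followed by feedback regulators that shut the signals down, among them the MAP kinase phosphatases (Dusp genes), the mRNA decay factor Zfp36 and the NF-kappaB inhibitors Nfkbia and Tnfaip3. B cells are the main neighbours of T cells in the spleen, and their receptor, immunoglobulin and MHC class II transcripts are the usual trace of them in a T cell sort.

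The arrays carry 45101 probe sets, and each array was brought to a mean of 500 without its lowest and highest 2%, so that a signal is a relative brightness. After a filter on dim probe sets 10364 of the 18193 named genes were tested. The labelled cell type was checked on Treg genes. Ikzf2, Ctla4 and Il2ra, which encode the factor Helios, an inhibitory receptor and the high-affinity chain of the IL-2 receptor, read at least 15990, 12899 and 2779 on all 6 arrays. The probe set of Foxp3 itself stayed between 8.98 and 108, too dim for the filter, and is no check of the label. Both sets differed in more than their labels. Naive 1 to 3 were deposited with 7 significant digits and naive 4 to 6 with 1 decimal. The ratio of the 3' to the 5' control probe sets of Gapdh, which rises as RNA or its copies get shorter, was 4.27 to 5.11 in naive 1 to 3 and 7.45 to 19.1 in naive 4 to 6, with naive 4 the highest. The same ratio of Actb overlapped, at 1.89 to 2.38 and 1.99 to 3.04. The brightest probe set reached 131995 to 171325 in naive 1 to 3 and 46431 to 78177 in naive 4 to 6. Since number format, Gapdh ratio and brightest signal follow the sets, batch and set cannot be told apart, and the part of RNA quality and of scanner range in the results was not tested.

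Naive 6 stood apart from the other 5 in some transcripts, although over all genes it correlated closely with naive 5 (r = 0.972). In the transcripts that follow, which are high in the tumor-activated arrays, naive 6 alone read well above the other naive arrays. Trap1a and Rhox5, a tumor antigen of P815 and an X-linked homeobox gene, read 1402 and 1851 there and at most 69.3 and 21.9 on the other naive arrays, which is 10.6% and 12.8% of their tumor-activated medians. Arg1, the macrophage enzyme arginase, read 4882 against at most 34.9, or 17.2% of the tumor-activated median. Cpa3, the mast cell carboxypeptidase, read 711 against at most 160.1, or 5.19% of it. Summed over the 4 P815 genes of the list (Trap1a, Rhox5, Rnase2a and Ctsg) the signal was 97.4 to 174.1 in naive 1 to 3, 108 and 60.5 in naive 4 and 5, and 4562 in naive 6. What placed these transcripts in an array labelled as resting spleen was not tested. Results are therefore given with all 6 arrays and, where it ends or adds a call of a named gene, without naive 6.

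The spread between the naive sets was large over the whole array. By limma on log2(signal + 32), 1281 genes were higher in naive 4 to 6 and 1172 lower at an adjusted p under 0.05, which is 12.4% and 11.3% of the genes tested and 23.7% in both directions. At an unadjusted p under 0.05 there were 1984 and 2049. All 3 arrays of naive 4 to 6 lay above all 3 of naive 1 to 3 for 2176 genes (21.0%) and below them for 2292 (22.1%). Without naive 6 the counts were 891 (8.60%) and 723 (6.98%). They fell to 692 and 473 without naive 1, 753 and 575 without naive 2, 729 and 497 without naive 3, and 513 and 369 without naive 5, and without naive 4 they were 1875 and 2026. In a fit over all 14 arrays 541 and 419 of 12212 genes passed (7.86% in both directions). Exact permutation tests of 3 arrays against 3 cannot go below p = 0.1 (two-sided), and 20 of the 27 defining genes tested this way reached it, which is 0.135 after adjustment over the 27. The titles call the samples biological replicates without saying that they came from separate animals, so that every p measures the spread between these samples. Fold changes come from log2(signal + 32), so that those of dim genes are too small, and they are written as naive 4 to 6 over naive 1 to 3.

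Transcripts of cycling cells were higher in naive 4 to 6. Of 79 genes of DNA replication and mitosis, 46 were called higher and 1 lower, where 12.4% and 11.3% of all genes were called, and their median log2 difference was 1.32 against -0.03 over all genes. Without naive 6 there were 48 and 0. The direction held with quantile normalization (46 and 1). With each array centred on T cell receptor genes, 75 were called higher and 0 lower, and the median was 2.05. Of all 10364 genes, 5136 were then called higher and 165 lower, so these counts are no check of the direction. That centring moves the median of all genes from -0.03 to 0.71, so that changes under it are to be read against 0.71. In these bulk samples a larger share of cycling cells and more cycle RNA per cell cannot be told apart.

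The mitosis genes carried most of it, with 33 of 48 called higher, 0 lower and a median of 1.65 (36, 0 and 2.05 without naive 6). By array, naive 4 was the highest of its set for 42 of the 48 and naive 6 the lowest for 46, where naive 4 was the highest for 4676 of all 10364 genes and naive 6 the lowest for 4207. Mki67, the chromosome surfactant protein Ki-67 that marks cycling cells, read 1025, 927 and 811 in naive 1, 2 and 3 and 8424, 7061 and 3413 in naive 4, 5 and 6. The sets did not overlap, and the difference was 6.23-fold (log2 2.64, SE 0.31, adjusted p = 0.0016). For scale, its median was 33195 in GVHD-activated and 8555 in tumor-activated cells, so that naive 4 lay near the tumor-activated median. The tumor-activated arrays also held P815 transcripts such as Trap1a (median 13264), and the part of other cells in that Mki67 level was not tested. Top2a, the topoisomerase that untangles chromosomes, went from 385, 521 and 396 to 4502, 3840 and 1929, a 7.04-fold difference (SE 0.30 on the log2 scale, adjusted p = 0.0013), although another probe set of it that passed the filter differed by only 0.63. Kif22, a chromosome-associated kinesin, had the largest difference of the list at 10.8-fold, from 260, 290 and 360 to 6027, 3305 and 2275 (adjusted p = 0.00078). Its other probe sets differed by 0.90 and 2.52. Cdca8 of the chromosomal passenger complex differed 8.38-fold, from 298, 298 and 331 to 3661, 3025 and 2026. Nusap1, which stabilises spindle microtubules, went from 84.2, 34.3 and 63.8 to 1455, 807 and 313. Cdc20, the activator of the anaphase-promoting complex, went from 257, 515 and 426 to 6563, 2583 and 1697, with another probe set at 1.25. The same order, with naive 4 highest and naive 6 lowest, is visible in each of these genes.

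Cyclin A2 and its kinase followed. Ccna2 read 175, 111 and 208 against 1762, 993 and 563 (5.37-fold, adjusted p = 0.0041), and Cdk1 read 133, 93.5 and 197 against 1025, 671 and 534 (4.47-fold, adjusted p = 0.0035). Birc5, the survivin subunit of the passenger complex, read 117, 150 and 62.8 in naive 1 to 3 and 573, 310 and 134 in naive 4 to 6. Naive 6 lay within the range of naive 1 to 3, and the gene did not pass (log2 1.25, adjusted p = 0.079), while without naive 6 it did (log2 1.73, adjusted p = 0.022). Foxm1, a transcription factor that drives mitotic genes and that is named here after its values were seen, differed by -0.65 and did not pass (adjusted p = 0.14).

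**Figure D1:**
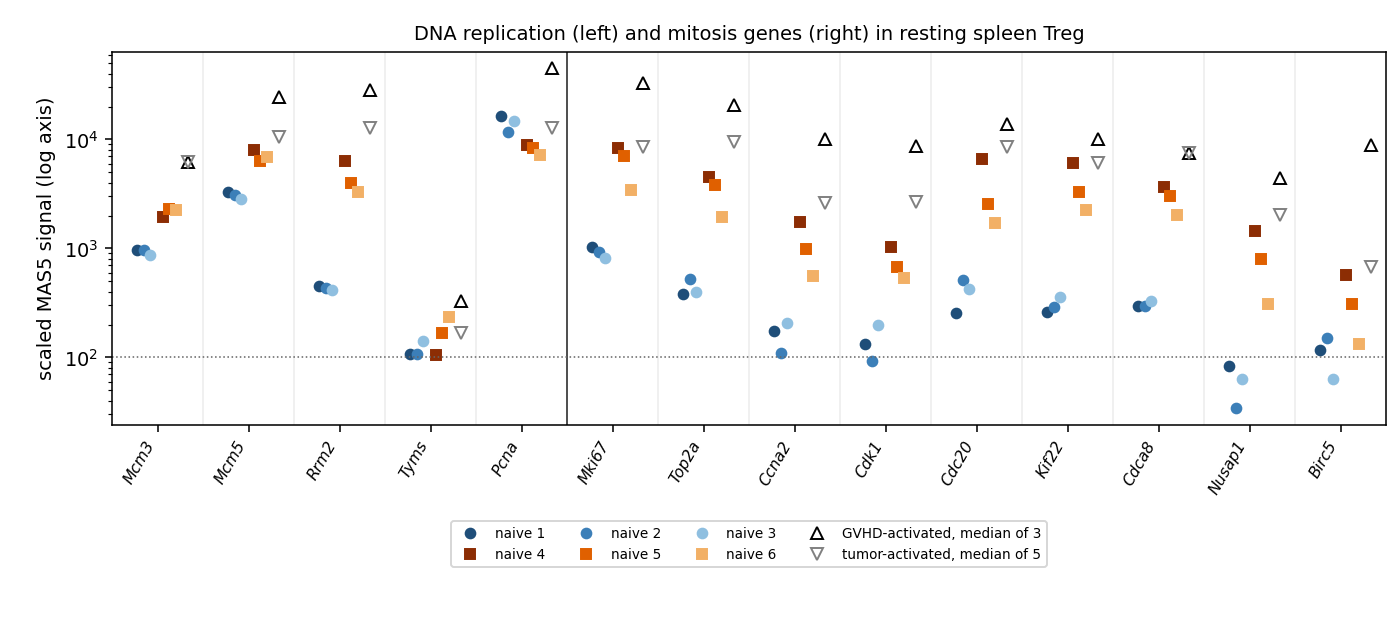
Scaled MAS5 signal on a log axis for 5 DNA replication and 9 mitosis genes. Circles are naive 1 to 3, squares naive 4 to 6, open triangles the medians of the GVHD-activated (up) and tumor-activated (down) arrays, and the dotted line is the filter at a signal of 100. The squares lie above the circles except for Tyms and Birc5, where they overlap, and Pcna, where they lie below. For most mitosis genes naive 4 is the highest and naive 6 the lowest square.

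DNA replication genes were less uniform, with 13 of 31 called higher, 1 lower and a median of 0.84. Naive 4 was the highest of its set for 19 and naive 6 the lowest for 12. Rrm2, the regulated subunit of ribonucleotide reductase, which makes deoxynucleotides, read 448, 433 and 418 against 6301, 3992 and 3291, a 9.45-fold difference (SE 0.24 on the log2 scale, adjusted p = 0.00078). Hells and Uhrf1, which maintain DNA methylation behind the fork, differed 5.08-fold and 3.46-fold, though the other probe sets of Hells that passed differed by 0.65 and 0.04. Cdc6, which loads the replicative helicase, differed 3.71-fold, from 83.0, 115 and 94.6 to 321, 520 and 526. Mcm5, a subunit of that helicase, differed 2.28-fold, from 3307, 3110 and 2862 to 7967, 6381 and 6974, with another probe set at 0.52. Pcna, the sliding clamp, was the only member called lower, at 16477, 11704 and 14896 against 8881, 8398 and 7212 (log2 -0.80, adjusted p = 0.020), and without naive 6 it no longer passed (log2 -0.72, adjusted p = 0.056). One value of the list stood out within naive 1 to 3. The flap endonuclease Fen1, named after its values were seen, read 68253 in naive 2 and 3018 and 3614 in naive 1 and 3, and it was not called (adjusted p = 0.38).

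Regulators of G1 did not share the shift of the list above, with 4 of 21 called higher, 1 lower and a median of 0.16. Over all genes 12.4% were called higher and 11.3% lower, with a median of -0.03. The higher calls were 2 without naive 2 or without naive 3, and the lower ones 5 without naive 4. Cdk2, the kinase of the G1/S transition, read 372, 323 and 386 against 922, 2081 and 1418. Cdk6, a kinase partner of D cyclins, differed 2.03-fold, with another probe set at 0.30. Ccnd1, cyclin D1, read 109, 90.3 and 53.1 against 200, 269 and 669 and did not pass without naive 6 (adjusted p = 0.063), and another probe set of it was at 0.34. Cdkn2c, an inhibitor of Cdk4 and Cdk6, differed 2.30-fold. Btg1, an antiproliferative gene, was called lower (log2 -0.89, adjusted p = 0.015), but its difference was 0.03 after quantile normalization.

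Promoters are shown for 3 of the mitosis genes because their transcripts moved together and they hold the same elements. Sequence was taken from RefSeq for the first listed start of a gene on GRCm38.p6. Of the tested mitosis genes, 40 of 48 had an entry. The cell cycle genes homology region (CHR), searched as TTTGAA on both strands in the 250 bases before the start, was in 14 of the 40 (35%), in 10.4% of the 8451 tested genes with an entry and in 16.3% of all 27025 promoters. The CCAAT box, searched as CCAAT on both strands, was in 29 of the 40 (72.5%), in 36.5% of tested genes and in 34.5% of all promoters. Among the 25 of 31 replication genes with an entry, 3 held the CHR and 13 the CCAAT box (52%). As background, CHR elements bind the DREAM and MuvB complexes, which repress mitotic genes in quiescent cells and activate them in G2. The 150 bases before the start are printed for Cdc20 (chr4:118437344-118437493, minus strand), Cdk1 (chr10:69352913-69353062, minus strand) and Kif22 (chr7:127042421-127042570, minus strand), with capitals on TTTGAA and CCAAT or their reverse complements. A match is a description of the letters and was not tested as a site.
Cdc20: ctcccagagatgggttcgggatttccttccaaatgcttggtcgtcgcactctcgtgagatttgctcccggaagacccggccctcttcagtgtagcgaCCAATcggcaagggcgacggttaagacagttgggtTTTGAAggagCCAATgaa
Cdk1: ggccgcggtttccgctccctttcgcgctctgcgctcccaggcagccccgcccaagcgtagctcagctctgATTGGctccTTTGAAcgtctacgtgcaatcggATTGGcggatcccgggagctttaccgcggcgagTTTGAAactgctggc
Kif22: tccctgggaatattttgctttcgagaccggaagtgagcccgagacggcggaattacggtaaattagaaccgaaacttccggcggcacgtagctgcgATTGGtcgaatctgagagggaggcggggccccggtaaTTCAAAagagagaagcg

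Immediate early and feedback transcripts went the other way on this scale. Of 58 genes, 27 were called lower in naive 4 to 6 and 4 higher, where 11.3% and 12.4% of all genes were called, with a median log2 difference of -0.99, although with each array centred on T cell receptor genes 11 were called lower and 14 higher and the median was -0.25, against 0.71 for all genes. Quantile normalization gave 22 lower and 4 higher. Without naive 6 there were 33 lower and 3 higher, and without naive 5 there were 17 and 2. The higher calls were 1 without naive 1 and 2 without naive 2 or naive 3. In 30 of the 58 genes all 3 arrays of naive 4 to 6 lay below naive 1 to 3, as in 22.1% of all genes. In a further 9, naive 4 and 5 lay below that range and naive 6 did not, a pattern found in 273 of all 10364 genes. Naive 6 was the highest of its set for 39 of the 58, against 3112 of all genes.

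Of the transcription factors, 12 of 25 were called lower and 2 higher (median -1.25; 15, 2 and -1.60 without naive 6). The lower calls were 7 when naive 1, 3 or 5 was left out. Junb, the AP-1 subunit JunB, had the largest fall of all genes tested, on the probe set that stands for each gene. It read 22285, 15870 and 13771 in naive 1 to 3 and 1163, 801 and 1969 in naive 4 to 6, a 13.5-fold difference (log2 -3.75, SE 0.32, adjusted p = 0.00078) with no overlap. Fos, a partner of Jun proteins in AP-1, read 33714, 26542 and 29645 against 3970, 2222 and 18755. It passed (log2 -2.43, adjusted p = 0.023), but naive 6 was far above naive 4 and 5, and after quantile normalization it did not pass (log2 -1.90, adjusted p = 0.11). Jun showed the gap within naive 4 to 6 most clearly, with 6730, 5658 and 5322 in naive 1 to 3 and 149, 291 and 5390 in naive 4, 5 and 6. Naive 6 lay inside the range of naive 1 to 3, and Jun missed the threshold with all arrays (log2 -3.11, adjusted p = 0.051) and passed without naive 6 (log2 -4.61, adjusted p = 0.00014). Fosb and Klf4, an AP-1 subunit and a zinc finger factor named after their values were seen, had the same pattern. Fosb read 939, 989 and 669 against 66.5, 53.5 and 884, and Klf4 read 2063, 1449 and 1645 against 211, 136 and 2274.

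In other members naive 6 lay close to naive 4 and 5. Nr4a1, the orphan nuclear receptor induced by antigen receptor signals, read 7515, 5676 and 5185 against 2986, 2012 and 2681 (log2 -1.25, adjusted p = 0.0059). Ier2, an immediate early nuclear protein, read 16972, 10788 and 10804 against 4410, 3802 and 4768 (log2 -1.54, adjusted p = 0.0034). Maff, a small Maf factor, differed by -2.26. Bhlhe40, a basic helix-loop-helix repressor, read 2909, 2510 and 3512 against 492, 357 and 1970, with naive 6 well above naive 4 and 5 (log2 -2.01, and -2.72 without naive 6). The Egr genes did not follow. Egr1 read 8597, 6655 and 6572 against 5853, 9260 and 10747 and was not called (log2 0.21, adjusted p = 0.56). Egr2, at 1678, 1621 and 2048 against 2564, 3643 and 3266, was called higher (log2 0.81, adjusted p = 0.019), as was Egr3, at 773, 505 and 886 against 1483, 1567 and 2162 (log2 1.25, adjusted p = 0.0094).

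Among the feedback regulators 15 of 33 were called lower and 2 higher (median -0.90; 18, 1 and -1.09 without naive 6). Ppp1r15a, the phosphatase subunit Gadd34 of the stress response, read 11710, 12359 and 13357 against 1102, 494 and 2462, a 10.9-fold difference (log2 -3.45, SE 0.45, adjusted p = 0.0024). Dusp1, which dephosphorylates p38 and JNK, read 61366, 50016 and 63475 against 6419, 4816 and 18916 (log2 -2.79, adjusted p = 0.0039). Tnfaip3, the NF-kappaB inhibitor A20, read 45500, 34861 and 50668 against 4392, 5278 and 18207, and after quantile normalization its adjusted p was 0.051. Another probe set of Tnfaip3 that passed the filter read 3310, 2238 and 2699 against 45.2, 75.2 and 320 (log2 -4.26). Gadd45b, a growth arrest gene, read 7606, 6644 and 5819 against 1768, 1257 and 1299, with other probe sets at -0.55 and -0.46. The members called higher were Gadd45a, at 234, 332 and 220 against 529, 590 and 1236, and Dusp6, the ERK phosphatase, at 384, 402 and 290 against 556, 714 and 1470, which did not pass without naive 6 (adjusted p = 0.071). In both, naive 6 was the highest array.

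**Figure D2:**
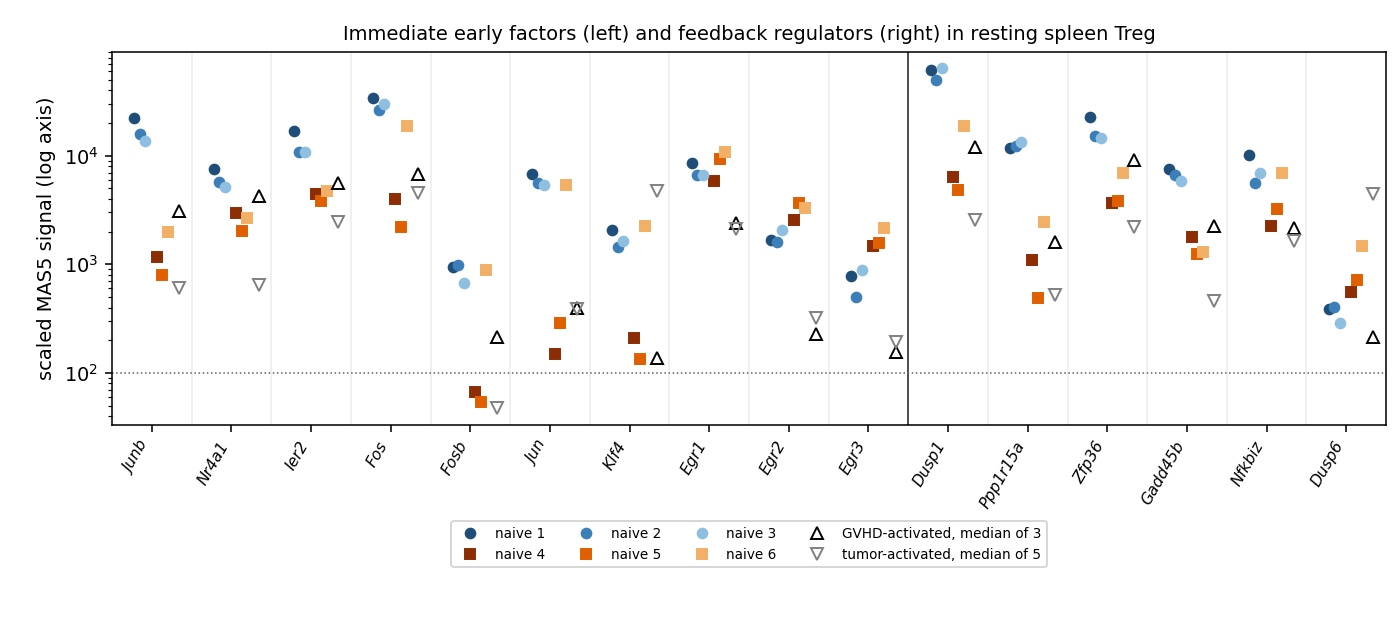
Scaled MAS5 signal on a log axis for 10 immediate early factors and 6 feedback regulators, with circles for naive 1 to 3, squares for naive 4 to 6 and open triangles for the medians of the GVHD-activated and tumor-activated arrays. Junb, Nr4a1 and Ier2 are low in all 3 squares, while for Fosb, Jun, Klf4 and Nfkbiz naive 6 (light square) lies among the circles. Egr2, Egr3 and Dusp6 lie above the circles.

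Promoters are shown for Fos, Junb and the feedback regulator Ppp1r15a as examples of genes called lower that hold the core of the cAMP response element. TGACG, that core, searched on both strands in the 250 bases before the start, was in 12 of the 19 immediate early factors with an entry (63.2%; 19 of 25 tested genes had one), in 8 of 25 feedback regulators (32%), in 28.8% of tested genes and in 17.9% of all promoters. The AP-1 site TGANTCA was in 0 of the 19, 3 of the 25 and 4.06% of tested genes, and the SRF-binding CArG box in 1, 2 and 1.05%. As background, CREB and ATF proteins bind such sites. The 150 bases before the start are printed for Fos (chr12:85473740-85473889, plus strand), Junb (chr8:84978749-84978898, minus strand) and Ppp1r15a (chr7:45526269-45526418, minus strand), with capitals on TGACG or its reverse complement. Again these are letters in a window and were not tested as sites.
Fos: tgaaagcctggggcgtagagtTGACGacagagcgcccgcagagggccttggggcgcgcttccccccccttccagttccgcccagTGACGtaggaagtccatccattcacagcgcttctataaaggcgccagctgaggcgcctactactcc
Junb: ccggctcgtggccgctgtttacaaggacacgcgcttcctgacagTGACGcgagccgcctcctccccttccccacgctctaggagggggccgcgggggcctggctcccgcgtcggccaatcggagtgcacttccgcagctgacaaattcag
Ppp1r15a: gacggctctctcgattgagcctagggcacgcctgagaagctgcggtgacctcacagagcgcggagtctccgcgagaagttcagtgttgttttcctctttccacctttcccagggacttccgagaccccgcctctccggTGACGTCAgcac

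Heat shock genes, which share stress induction with the immediate early genes, showed counts near the background with all arrays (2 of 17 higher, 1 lower, median 0.04). Without naive 4 there were 5 higher. Chordc1 and Hspd1, an Hsp90 co-chaperone and the mitochondrial chaperonin, were higher, and Bag3, a co-chaperone of Hsp70, was lower at -0.79. Without naive 6 Hspd1 (adjusted p = 0.069) and Bag3 (0.075) did not pass. Hspa1b, an inducible Hsp70 gene named after its values were seen, read 4012 in naive 6 and between 40.0 and 157 on the other naive arrays.

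B cell receptor and lineage transcripts were higher in naive 4 to 6, though less evenly across arrays. Of 25 genes of the B cell lineage, 11 were called higher and 2 lower, with a median of 1.13. With the immunoglobulin and plasma cell genes added it was 12 and 2 of 35, where 12.4% and 11.3% of all genes were called. Some members, such as Cd79a and Cr2, passed the filter only through naive 4 to 6, where they are high. With no filter 5 of 31 lineage genes were higher and 1 lower (1023 and 976 of all 18193 genes). With the filter at 200 the counts were 5 and 2 of 15 (1264 and 1068 of 8636). Fewer held when an array was left out, with 4 and 2 of the 35 without naive 6, 4 and 1 without naive 1, and 5 and 1 without naive 3. For the lineage genes alone the higher calls were 3 without naive 6 or naive 1, 4 without naive 3 and 7 without naive 2 or naive 4. The lineage genes were lowest in naive 5 for 21 of 25, against 2253 of all 10364 genes, and highest in naive 6 for 15 and in naive 4 for 9. Their summed signal was 14863 to 16895 in naive 1 to 3 and 17850, 11589 and 19378 in naive 4, 5 and 6. Ms4a1, the B cell surface protein CD20, read 71.9, 179 and 97.2 there and 1710, 421 and 1777 in naive 4 to 6, a 7.96-fold difference (log2 2.99, SE 0.51, adjusted p = 0.0056). Cd79a, a signalling chain of the B cell receptor, read 24.3, 78.8 and 75.9 against 390, 121 and 222 (log2 1.54, adjusted p = 0.035) and did not pass without naive 6 (adjusted p = 0.081). Its partner Cd79b read 510, 482 and 633 against 1426, 460 and 781, which overlap (log2 0.55, adjusted p = 0.27). Cr2, the complement receptor CD21, differed 3.31-fold, and Blnk, a B cell adaptor, 3.61-fold, the latter not passing without naive 6 (adjusted p = 0.12). Scd1, a fatty acid desaturase on the list, read 12.5, 23.1 and 152 against 358, 122 and 680 and did not pass without naive 6 (adjusted p = 0.12). The members called lower were Cd37, a tetraspanin also found on T cells, whose other probe set differed by 0.88, and Pou2f2, the factor Oct-2, which did not pass without naive 6 (adjusted p = 0.11). Pax5 and Ebf1, the defining factors of the lineage, read at most 100.9 and 142 on any naive array, in naive 6, and were too dim to be tested.

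Immunoglobulin transcripts did not separate the sets. Ighm, the mu heavy chain, read 13388, 12563 and 22509 against 21336, 8424 and 9978 (log2 -0.36, adjusted p = 0.49). Igha, the alpha heavy chain, varied widely within each set, at 2919, 92.7 and 2963 against 1166, 2692 and 8737 (log2 1.57, adjusted p = 0.34). Of the 10 tested genes of this list 1 was called, Prdm1, which encodes the factor Blimp-1 of plasma cells and of effector Treg cells, at 519, 294 and 377 against 1894, 1655 and 1571 (4.14-fold, adjusted p = 0.0014). Irf4, on the same list and named after its values were seen, read 979 to 1064 against 1099 to 1428 (adjusted p = 0.21).

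MHC class II transcripts, which present peptides to CD4 T cells, split by member. Those of the classical molecules were higher. H2-Aa, the alpha chain of I-A, read 212, 271 and 375 against 5432, 1501 and 4636, a 10.9-fold difference (log2 3.45, SE 0.43, adjusted p = 0.0021), and its other probe sets that passed differed by 2.05 and 1.63. H2-Ab1, its beta chain, read 58.1, 209 and 28.3 against 647, 449 and 875, and H2-Eb1 read 236, 244 and 176 against 1650, 543 and 2103. As for the B cell genes, naive 5 was the lowest of its set, for 7 of the 8 tested genes. H2-DMa and H2-Oa, which act in peptide loading, were called lower, the latter at -0.97, but another probe set of H2-DMa was at -0.14. Cd74, the invariant chain, named after its values were seen, read 939, 865 and 619 against 2579, 582 and 1253 (adjusted p = 0.33).

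Of 12 tested macrophage and monocyte genes 2, the lysozymes Lyz1 and Lyz2, were called higher and 0 lower, a share near the 12.4% of all genes. The higher calls were 0 without naive 3 and 1 without naive 1 or naive 6, and the median was 0.43 with all arrays and -0.13 without naive 6. The summed signal of the whole list of 25 was 10459 to 11330 in naive 1 to 3 and 11546, 7455 and 20576 in naive 4, 5 and 6. Lyz1 read 73.6, 21.3 and 9.84 against 948, 125 and 1851, and Lyz2 read 39.9, 94.0 and 15.6 against 336, 137 and 610, with an adjusted p of 0.060 without naive 6. Both lysozymes passed the filter only through naive 4 to 6, where they are high, so the filter favoured a higher call. Naive 5 was thus the lowest of its set for B cell, class II and lysozyme transcripts. The macrophage gene Arg1, and C1qa and Marco, both named after their values were seen, read at most 34.9 on naive 1 to 5. They do not stand for the whole list, whose summed signal on those arrays is given above. Mast cell genes gave 3 lower calls of 6 tested, Tpsab1, Gata1 and Srgn, and 1 when naive 3, 5 or 6 was left out. Over all genes 11.3% were called lower with all arrays, and Tpsab1 passed the filter only through naive 1 to 3. Of the neutrophil and erythroid lists 1 of 4 genes each was called lower, and of the dendritic (4 tested) and stromal (2 tested) lists none, with no member of either called higher. The part of other cells in the B cell and class II results was not tested.

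**Figure D3:**
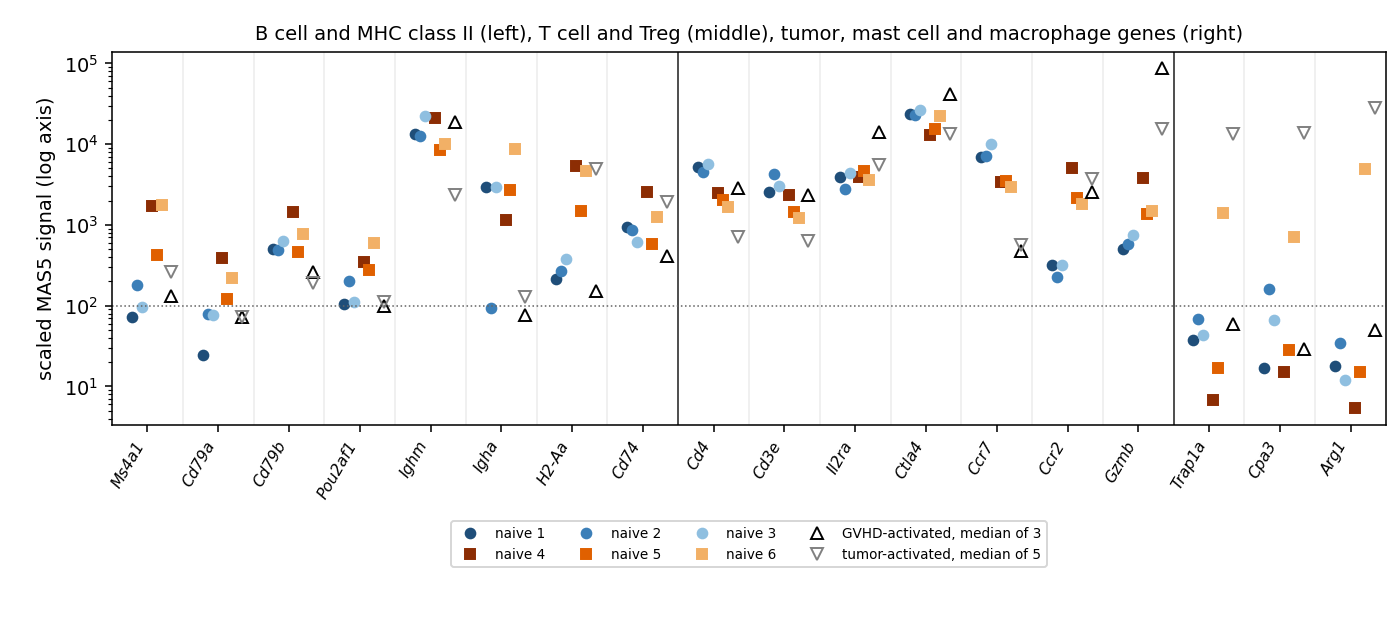
Scaled MAS5 signal on a log axis for B cell, immunoglobulin and MHC class II genes (left), T cell and Treg genes (middle) and tumor, mast cell and macrophage genes (right), with symbols as circles for naive 1 to 3, squares for naive 4 to 6 and open triangles for activated medians. Naive 5 is the lowest square for Ms4a1 and H2-Aa, Cd4 and Ccr7 lie lower in naive 4 to 6, and Trap1a, Cpa3 and Arg1 rise above 100 among the squares in naive 6 alone.

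Genes of the T cell receptor complex and lineage were lower in naive 4 to 6 on this scale. Of 21 genes 12 were called lower and 0 higher, where 11.3% and 12.4% of all genes were called. Their median was -0.79, and the counts were 8 and 0 without naive 6, 7 and 0 without naive 5. Quantile normalization gave 11 and 0. In the decile of highest signal, 212 of 1037 genes were called lower and 129 higher. That decile held 13 of the 21, of which 6 were called lower. Naive 6 was the lowest of its set for 15 of the 21. Cd4 read 5276, 4474 and 5669 against 2450, 2049 and 1659 (log2 -1.32, adjusted p = 0.0037), while its second probe set differed by 0.29. Cd3d, a chain of CD3, went from 16051, 11503 and 17065 to 7260, 6655 and 5212, and Cd3e from 2539, 4321 and 3018 to 2344, 1425 and 1211, where it passed with 6 arrays (adjusted p = 0.033) and not without naive 6 (adjusted p = 0.085). Lcp2, the adaptor SLP-76, differed by -1.50 (another probe set by -0.37) and Gata3, a T cell transcription factor, by -1.60. The summed signal of the list was 204707 to 225905 in naive 1 to 3 and 152922, 134778 and 125595 in naive 4, 5 and 6. With arrays centred on this list 5136 of all genes were called higher and 165 lower.

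Of 27 Treg identity genes 3 were higher and 8 lower, where 12.4% and 11.3% of all genes were called, with a median of -0.05. The lower calls were 5 without naive 6 and 3 when naive 1, 2, 3 or 5 was left out, and without naive 4 there were 5 higher. Il2ra read 3942, 2779 and 4339 against 3942, 4674 and 3596 and was not called (adjusted p = 0.61), and Ctla4, at 23597, 22731 and 26774 against 12899, 15228 and 22499, was not called with all arrays (log2 -0.57, adjusted p = 0.11) but was without naive 6 (log2 -0.79, adjusted p = 0.038). Swap70, an actin-binding exchange factor, differed 4.52-fold, from 607, 580 and 564 to 2152, 3062 and 3160, with its other probe set at 0.49. Fgl2, a secreted suppressive factor, differed 3.17-fold and Icos, a co-stimulatory receptor, 1.65-fold, though the other probe sets of Icos were at 0.018 and 0.12. Il10, the suppressive cytokine, read 745, 912 and 1184 against 153, 47.0 and 443 (log2 -2.34, adjusted p = 0.016). Tgfb1 differed by -1.94 (another probe set by -0.30), Izumo1r, the folate receptor 4 of Treg cells, by -1.36 and Lag3, an inhibitory receptor, by -1.26.

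Counts of homing and effector genes are to be read against the 12.4% of all genes called higher and 11.3% called lower. Of 18 genes of naive cells and lymphoid homing 4 were lower and 1, Il7r, was higher (2 lower without naive 3). Ccr7, the receptor for entry into lymphoid tissue, read 6904, 7111 and 9944 against 3403, 3483 and 2911 (log2 -1.27, adjusted p = 0.0040). Klf2, a quiescence and homing factor that is on the immediate early list too, read 24918, 21213 and 24185 against 7629, 7781 and 9163, and Il6ra differed by -1.04. Satb1 differed by -1.07 on the probe set used, but its others that passed were at -0.36, -0.028, 0.20 and 0.45. Of 31 genes of effector Treg cells and tissue homing 9 were higher and 3 lower (median 0.47). The lower calls were 9 without naive 4 and 1 when naive 1, 2, 3 or 5 was left out. Ccr2, the receptor for inflammatory monocyte chemokines, read 318, 225 and 318 against 5124, 2133 and 1795, an 8.65-fold difference (adjusted p = 0.0016), but the other probe sets of it that passed differed by 0.88, 0.42 and -0.24. Anxa1, annexin A1, read 95.9, 143 and 99.3 against 797, 572 and 1580, and Gcnt1, an enzyme that makes selectin ligands, differed 3.20-fold, with another probe set at 0.33. Ccr8, a receptor of effector Treg cells, was lower at -1.39, as were the integrin chains Itgb7 (-0.72) and Itga4 (-0.61). Under centring on T cell receptor genes the differences of Itgb7 and Itga4 were 0.02 and 0.13, against a median of 0.71 for all genes. Without naive 6 Itga4 did not pass (adjusted p = 0.088), and its other probe sets were at 0.72, 0.84 and -0.38. Gzmb, granzyme B, read 507, 579 and 749 against 3778, 1369 and 1477 (3.15-fold, adjusted p = 0.013), with a GVHD-activated median of 86413. Ctsw, cathepsin W, and Cd8b1, the CD8 beta chain, were lower at -2.14 and -1.02, the remaining calls among 14 cytotoxic genes, and Cd8b1 did not pass without naive 6 (adjusted p = 0.055).

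Smaller lists are to be read against the 11.3% of all genes called lower and 12.4% called higher. Interferon-stimulated genes gave 6 lower and 1 higher of 27 with a median of -0.54. Under centring on T cell receptor genes it was 0.20, against 0.71 for all genes. The lower calls were 2 when naive 1, 3 or 5 was left out and 10 without naive 4. Mx2, an antiviral GTPase, read 237, 144 and 142 against 3.20, 10.2 and 15.3, and Zbp1, Ifit1 and Ifit3 differed by -1.40, -1.31 and -1.09, while Gbp3 was higher at 1.18. Another probe set of Zbp1 was at 0.070, and without naive 6 Ifit1 (adjusted p = 0.11) and Gbp3 (0.057) did not pass. Circadian genes gave 5 lower of 14 and 1 higher, with 2 lower when naive 1, 2, 3 or 5 was left out. The repressor Nfil3 read 732, 795 and 903 against 129, 135 and 298, Ciart differed by -1.77 and the output gene Dbp by -1.13, while the core repressor Cry1 was higher at 1.03. Of 17 glucocorticoid-responsive genes 6 were lower and 3 higher (1 higher when naive 1, 2, 3 or 5 was left out). Tsc22d3, the glucocorticoid-induced leucine zipper, read 3631, 3792 and 3980 against 1052, 784 and 1518, and Klf9 differed by -1.60, but Fkbp5, another glucocorticoid target, read 990, 1013 and 1011 against 1812, 1998 and 2038 and was called higher. Other probe sets were at -0.19 and -0.38 for Tsc22d3 and 0.068 for Fkbp5. The labels used here give no time of day for the spleens.

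Ribosomal protein genes, which are among the brightest probe sets, were the most uniform list. Of 25 genes 23 were called lower and 0 higher with a median of -1.29 (18 without naive 6, 14 without naive 1, 13 without naive 3 and 10 without naive 5). After quantile normalization 10 were called and the median was -0.34, and 21 of the 25 lay in the decile of highest signal, in which 212 of 1037 genes were called lower and 129 higher. Rps15 read 51487, 50767 and 63110 against 18334, 3654 and 3035 and Rpl11 read 38420, 33530 and 45831 against 14483, 6978 and 5166. Naive 4 was the highest of its set for 24 of the 25. Oxidative phosphorylation gave 4 lower of 30 and 0 higher (17 lower without naive 4, 1 when naive 1, 3 or 5 was left out), with Atp5o at -1.44 and Uqcrq at -1.31 (another probe set at -0.50), and glycolysis 3 lower and 1 higher of 19 (0 lower without naive 5, 1 without naive 1, and 4 higher without naive 4), with Ldha at -0.87 and Pkm at -0.86. Sterol synthesis, with 2 of 15 higher and 2 lower, stood near the shares of all genes, and its higher calls were 0 without naive 3 or naive 5 and 1 without naive 1 or naive 2, with 5 lower without naive 4. In the endoplasmic reticulum list 3 of 22 were higher and 3 lower, also near those shares. Its stress factors Atf4 and Ddit3 were at -1.70 and -1.65, but another probe set of Atf4 that passed was at 0.24. The higher calls were 0 without naive 1 or naive 5, 1 without naive 2, 3 or 6, and 7 without naive 4, with 5 lower. Of 17 p53 targets 3 were higher and 1 lower (1 higher when naive 1, 3 or 5 was left out, 3 lower without naive 6), and of 8 sex-linked genes 2 and 1.

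**Figure D4:**
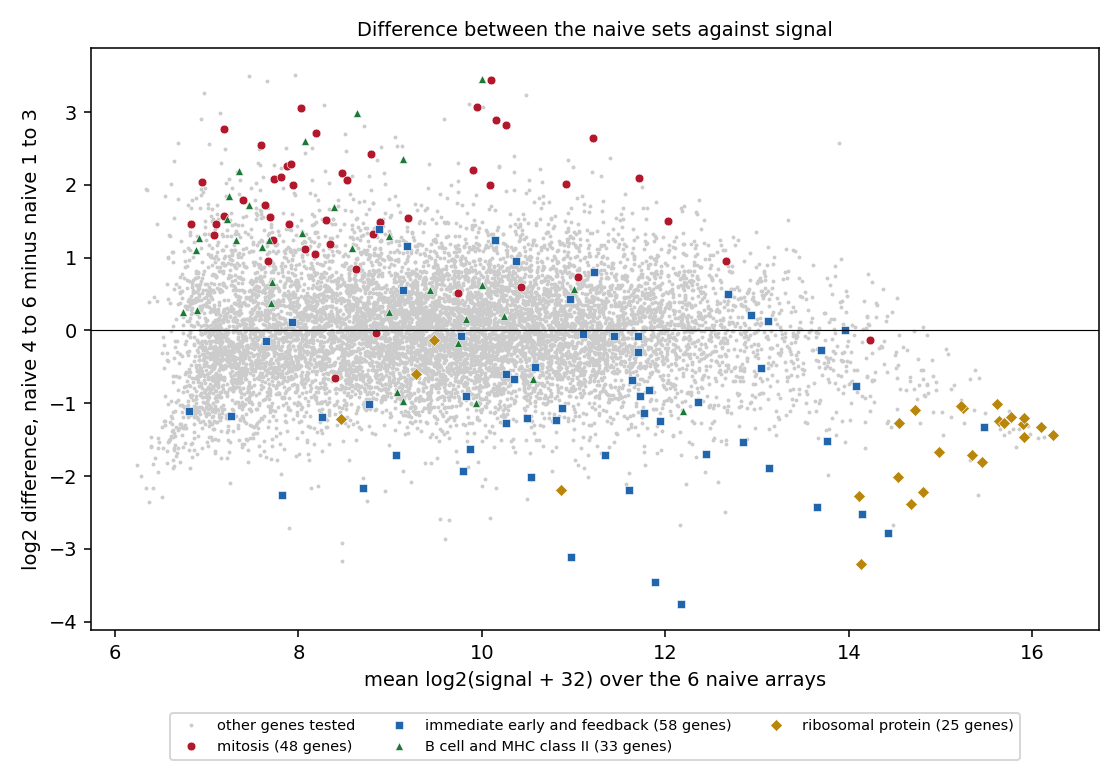
Log2 difference of naive 4 to 6 minus naive 1 to 3 against mean log2(signal + 32) over the 6 arrays, 1 point for each of the 10364 genes tested, with 4 groups of genes in colour. Mitosis genes lie mostly above 0, immediate early and feedback genes mostly below, and 21 of 25 ribosomal protein genes lie in the decile of highest signal, mostly below 0. With arrays centred on T cell receptor genes, 14 of 58 immediate early and feedback genes were called higher and 11 lower. Of all 10364 genes 5136 were called higher and 165 lower under that centring.

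**Figure D5:**
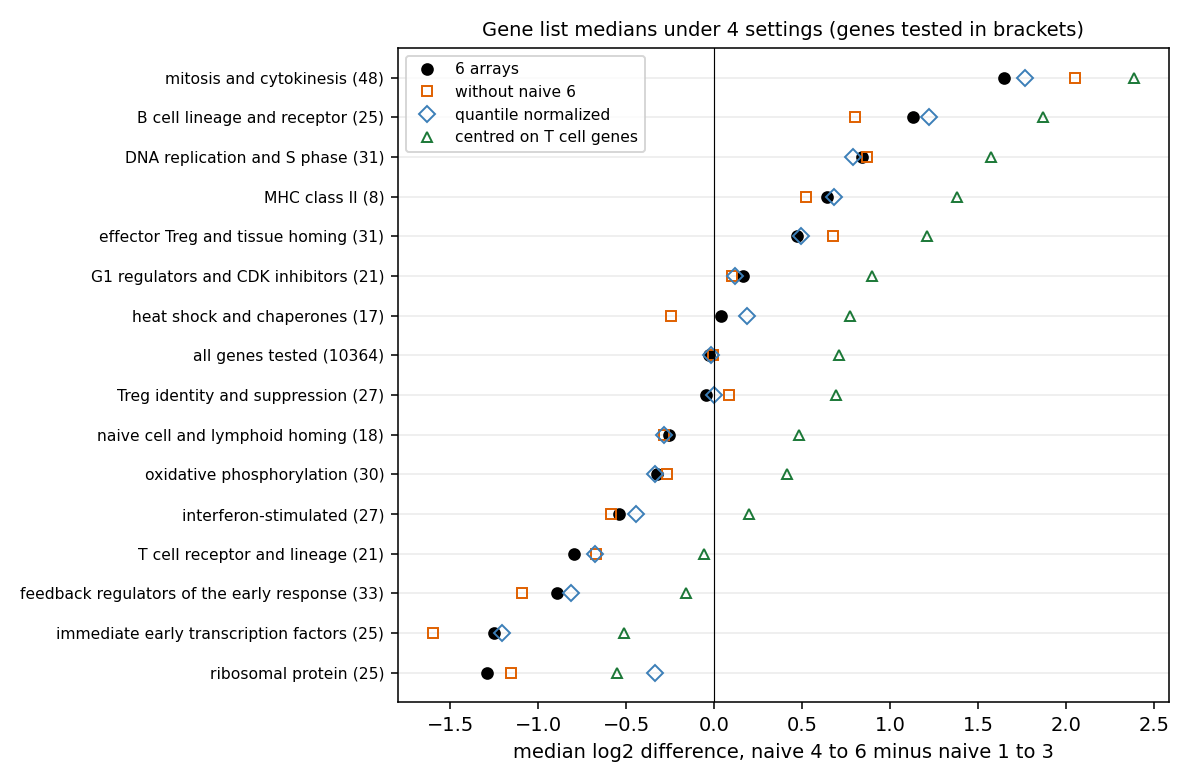
Median log2 difference of each gene list (naive 4 to 6 minus naive 1 to 3) with 6 arrays, without naive 6, after quantile normalization and with arrays centred on T cell receptor genes, with the number of genes tested in brackets. Mitosis is the highest list under each of the 4 settings, and centring moves all lists to the right. Oxidative phosphorylation, Treg identity, lymphoid homing and interferon-stimulated genes move past 0, as does the median of all genes (-0.03 to 0.71). The ribosomal protein median moves from -1.29 to -0.34 with quantile normalization.

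The 12 largest rises among called genes with no overlap held 4 members of the replication and mitosis lists, Kif22, Rrm2, Cdca8 and Nusap1, beside H2-Aa, Lyz1 and Ccr2. Shcbp1, a protein of the midbody, read 112, 20.2 and 21.9 against 791, 886 and 770 (11.4-fold, the largest of all), and Depdc1b read 9.98, 10.5 and 5.49 against 394, 403 and 288. Serpinb1a, an inhibitor of neutrophil proteases, read 12.6, 34.5 and 17.2 against 341, 125 and 3520, and App, the amyloid precursor protein, 122, 65.0 and 49.4 against 456, 620 and 2336, so that in both naive 6 was the highest by far. Naive 4 and 5 also lay above naive 1 to 3 in Serpinb1a, App, Lyz1 and H2-Aa. The tumor-activated medians of these genes were 22754, 11684, 4719 and 4967. Wdr48 differed 8.37-fold on the probe set used, but the others that passed differed by 0.55 and -0.24. The largest falls besides Junb, Ppp1r15a, Dusp1 and Rps15 were Sema3f, a guidance factor at 407, 3902 and 667 against 117, 84.2 and 64.2, Irs2, an insulin receptor substrate at 991, 1262 and 672 against 69.1, 158 and 79.1, Fau, a ribosomal fusion protein, Dnajc17, the choline kinase Chka, the RNase Zc3h12a, which degrades inflammatory mRNAs, the RNA-binding protein Rbm38 and the unnamed transcript 2610035D17Rik. Zc3h12a read 2116, 1394 and 1977 against 414, 188 and 251. Other probe sets that passed fell less, at -0.71 for Zc3h12a, -0.64 for Dnajc17, -0.47 for 2610035D17Rik and -1.50 and -0.68 for Chka.

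Variation within a set differed between them. The range over 3 arrays had a median of 0.43 on the log2 scale in naive 1 to 3 and 0.56 in naive 4 to 6, and it exceeded 1 for 1209 and 1884 of the 10364 genes. It exceeded 2 for 222 and 154, most often with naive 2 apart in the first set (102) and naive 4 in the second (79), then naive 6 (58). Correlations over genes were 0.952 to 0.968 within naive 1 to 3, 0.925 to 0.972 within naive 4 to 6 and 0.863 to 0.913 between the sets. Within naive 4 to 6 the closest pair was naive 5 and 6 (0.972) and the furthest naive 4 and 6 (0.925). These correlations are across genes, which are not independent replicates. By list, mitosis genes had a median range of 0.80 and 0.90, immediate early factors 0.50 and 0.80, B cell genes 0.74 and 0.96, and MHC class II 0.61 and 1.37.

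Each naive set was also set against both activated groups in the fit over 14 arrays. The comparisons share their control or activated arrays, so each is given by itself. Of all 12212 genes, GVHD-activated cells had 1201 higher and 1526 lower against naive 1 to 3, and 1878 and 2173 against naive 4 to 6. Tumor-activated cells had 1974 higher and 1895 lower of all genes against naive 4 to 6, and 2672 and 3072 against naive 1 to 3. The list counts below are to be read against these. GVHD-activated cells had 77 of 80 cell cycle genes higher against naive 1 to 3, the submitters' control (22.3% of all genes called), and 73 against naive 4 to 6 (33.2%). Tumor-activated cells had 58 higher and 1 lower against naive 4 to 6, their own control (31.7%), and 72 and 1 against naive 1 to 3 (47.0%). For 61 immediate early and feedback genes, GVHD-activated cells had 31 lower and 1 higher against naive 1 to 3 and 18 and 5 against naive 4 to 6. Tumor-activated cells had 23 lower and 11 higher against naive 4 to 6 and 40 and 7 against naive 1 to 3. For 42 B cell and immunoglobulin genes, GVHD-activated cells had 8 lower and 4 higher against naive 1 to 3 and 22 and 1 against naive 4 to 6. Tumor-activated cells had 17 lower and 4 higher against naive 4 to 6 and 11 and 9 against naive 1 to 3. In the fit over 14 arrays the naive sets themselves differed in 43 of the 80 cell cycle genes, all higher. They differed in 16 of the 61 early genes (2 higher) and in 8 of the 42 B cell genes (7 higher). Of all 12212 genes 541 were higher and 419 lower there (7.86% in both directions).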

How the data were processed

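RNA from 6 naive Treg samples was measured on 1-colour Affymetrix mouse arrays, with 3 per set. Per the submitters' processing notes, the deposited intensity values were made by the authors with MAS5 (no version stated). Every array was brought here to a mean of 500 after trimming 2% at each end, and 32 was added before log2. Probe sets at 100 or more on at least 3 of the 6 naive arrays were kept (22604). A gene could pass through a single set, as Nusap1 and Depdc1b did through naive 4 to 6. Mx2 passed through naive 1 to 3 alone. Genes came from probe sets with 1 symbol (34958 of the 35890 listed, 932 had several and 9160 more had no entry), and 34754 of them matched RefSeq. The brightest probe set stood for a gene. Tests used limma 3.58.1 in R 4.3.3 (lmFit and eBayes with trend) with Benjamini-Hochberg adjustment over all genes. The test was checked on simulated data. The members and the 31 gene lists were chosen with earlier results of these data known, so no list was tested. Named genes were the 12 largest called changes in each direction without overlap, up to 4 called members per list and direction, and defining genes. List symbols without a 1-symbol probe set were not analysed here. Array number limits precision. The replicate numbers of the sets are not shared, so no pairing was used. Alternatives are given in the closing section.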

Additional observations from a re-analysis of the deposited data

Results flagged for a closer look

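Naive replicate 6 held signals that no other naive array had, in genes that did not pass the filter and entered no comparison. The highest value in naive 1 to 3 is given beside each. Arg1 read 4882 (at most 34.9 in naive 1 to 3), Rhox5 1851 (21.9), Tph1, the tryptophan hydroxylase of mast cells, 1799 (121), Trap1a 1402 (69.3), Alox15, a lipoxygenase of resident macrophages, 1356 (32.7) and Rnase2a 755 (63.2). Relative to the tumor-activated medians these were between 5.65% for Rnase2a and 17.2% for Arg1. Chil3, a chitinase-like protein of macrophages, read 16435 in the same array and at most 56.6 on the other naive arrays.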

How the results depend on the processing

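No paired analysis was possible because naive 1 to 3 and naive 4 to 6 share no replicate number. The main counts were 1281 higher and 1172 lower genes, 46 and 1 cell cycle genes, 4 and 27 immediate early and feedback genes, and 12 and 2 B cell and immunoglobulin genes. The fit over 14 arrays gave 541 and 419 genes, 0 lower cell cycle genes, 2 and 14 early genes, and 7 and 1 B cell genes. Array weights, whose estimation stopped before it converged, gave 2850 and 3061 genes, 2 lower cell cycle genes and 5 lower B cell genes. Centring on T cell receptor genes gave 5136 and 165 genes, 75 and 0 cell cycle genes, 14 and 11 early genes and 24 and 0 B cell genes, where the median of all genes was 0.71. B cell counts were 6 and 1 with no filter, 6 higher with the filter at 200 and 1 lower with the mean over probe sets, and for all of these the cause was not tested. With 1 array left out the counts ranged from 513 to 1875 genes higher and 369 to 2026 lower, 31 to 48 and 0 to 1 cell cycle genes, 1 to 4 and 17 to 33 early genes, and 4 to 12 and 1 to 3 B cell genes. Among named genes the sign turned for Btg1 with quantile normalization (0.025), for Itgb7 (0.016), Itga4 (0.13), Ndufa4 (0.018) and Aldoa (0.14) under centring, and for Itga4 with the mean over probe sets (0.15). Over all settings that keep the 6 arrays, 1272 values kept direction and call, 150 lost the call, 11 gained it and 6 turned. Number format, brightness range and the Gapdh ratio differ between the sets and cannot be told apart from them, while the Actb ratio overlaps.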
